A study of Rattus norvegicus with 10 samples.

Results

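Nucleoporins, the proteins that build the nuclear pore, and pre-mRNA splicing factors were followed in rat liver as a set of genes whose rat symbols begin with Nup and a digit, Hnrnp, Srsf, Snrp, Sf3a, Sf3b or Prpf. The rule took 71 genes, read by 108 probes, of 13832 genes with a named probe among 41012 non-control probes. They comprise 20 nucleoporins, 16 Hnrnp, 8 Srsf, 7 Snrp, 8 Sf3a or Sf3b and 12 Prpf genes. The DEN/TAA group comprised 5 male Wistar rats that received 1 intraperitoneal injection of diethylnitrosamine (DEN, 200 mg/kg) in saline when 6 weeks old, and, beginning 2 weeks after it, thioacetamide (TAA, 200 mg/kg) in cycles of 3 weeks with and 1 week without injections. The control group comprised 5 male Wistar rats that received only vehicle. All 10 livers are labelled 23 weeks of age, while the protocol also gives 23 weeks of treatment, so the duration is not settled by the labels. DEN is a liver carcinogen and TAA a hepatotoxin that causes fibrosis, and the comparison asked how their combination altered the liver transcriptome.

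The nuclear pore is a ring-shaped channel through which all messenger RNA leaves the nucleus. Its scaffold is made of Y complexes and an inner ring, and a nuclear basket and cytoplasmic filaments extend from its faces. Splicing factors work on the other side of that gate: small nuclear ribonucleoproteins (snRNPs) recognise the ends of introns, Prpf proteins assemble and drive the spliceosome, and SR proteins (Srsf) and heterogeneous nuclear ribonucleoproteins (Hnrnp) bind the transcript and set which exons are kept.

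Each array read 1 rat liver in 1 colour. Signal is given here on a scale on which each array's 75th percentile, taken over the probes well above background on all 10 arrays, is 100, and differences are log2 values of DEN/TAA minus control from limma with Benjamini-Hochberg adjustment over 6854 genes. The control arrays were the dimmer ones: 36.1% to 46.6% of spots stood well above background in the DEN/TAA rats, against 16.5% to 32.9% in the control rats. The median gene differed by 0.33, so each member's difference is read against that shift as well as against 0. Every comparison was repeated under 5 other scalings of the arrays: the 75th percentile over all probes, quantile normalisation, the spike-in RNAs added at labelling, normexp background correction, and the log2 table that the authors deposited. The median gene then differed by 0.021 with the percentile over all probes, by 0.99 with spike-in scaling and by values between these with the others. The percentile scalings and spike-in scaling shift all genes of an array alike, so values relative to the median gene are identical among them. DEN/TAA replicate 5 stood apart from the other treated rats, lying far below them, by Dixon's gap criterion, for 277 genes and far above them for 144, against 10 to 34 genes in either direction for each other treated array. The number of arrays limits the precision of every value. Levels are compared between rats for the same probe and never between probes.

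The promoters of 68 of the 71 members were found in the RefSeq table (build GRCr8). The CCAAT pentamer, searched on both strands from 250 bases before to 50 bases after the start of the gene, occurred in 38 of the 68 (55.9%), compared with 37.7% of all 27457 promoters and 39.5% of the promoters of genes tested. It occurred in 21 of the 35 members with a promoter that were higher in DEN/TAA livers and in 14 of the 26 tested without a call. The GC box GGGCGG occurred in 55.9% of the members, against 61.8% of genes tested, the ETS core CCGGAAG in 23.5% against 20.2%, and the E-box CACGTG in 14.7% against 9.72%. TATAAA occurred in 8.82% of the members, against 7.798% of genes tested. Promoters of 4 members are printed to show these letters beside the values given further on: Hnrnpa1 and Nup50 were higher in DEN/TAA livers, Prpf8 did not pass the test and Srsf9 was the single member that was lower. Each is the 250 bases before the start, 5′ to 3′ on the gene's strand, with matches to any of the 5 motifs on either strand in capitals.
Hnrnpa1 (chr7:136253868-136254117, plus strand): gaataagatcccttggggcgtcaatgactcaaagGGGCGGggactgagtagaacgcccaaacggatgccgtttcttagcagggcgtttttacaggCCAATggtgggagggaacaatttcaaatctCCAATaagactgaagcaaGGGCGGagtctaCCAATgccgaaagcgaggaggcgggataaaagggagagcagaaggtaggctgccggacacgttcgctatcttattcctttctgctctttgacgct
Nup50 (chr7:117927632-117927881, plus strand): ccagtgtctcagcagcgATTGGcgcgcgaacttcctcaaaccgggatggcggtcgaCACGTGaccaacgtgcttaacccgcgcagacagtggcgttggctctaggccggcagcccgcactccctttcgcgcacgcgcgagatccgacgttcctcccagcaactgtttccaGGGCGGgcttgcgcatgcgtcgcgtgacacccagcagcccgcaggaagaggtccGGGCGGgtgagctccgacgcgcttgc
Prpf8 (chr10:60829528-60829777, plus strand): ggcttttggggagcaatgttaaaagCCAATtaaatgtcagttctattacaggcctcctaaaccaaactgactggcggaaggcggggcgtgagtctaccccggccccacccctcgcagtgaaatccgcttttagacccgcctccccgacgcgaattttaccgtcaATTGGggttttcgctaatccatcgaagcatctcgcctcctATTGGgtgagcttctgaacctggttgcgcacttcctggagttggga
Srsf9 (chr12:46945148-46945397, minus strand): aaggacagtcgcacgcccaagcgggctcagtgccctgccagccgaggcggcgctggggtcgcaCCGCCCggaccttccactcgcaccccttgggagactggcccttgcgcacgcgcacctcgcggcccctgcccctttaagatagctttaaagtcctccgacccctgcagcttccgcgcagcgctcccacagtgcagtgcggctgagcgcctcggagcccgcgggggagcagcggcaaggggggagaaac
Hnrnpa1 and Prpf8 each hold 3 CCAAT matches, and of this pair only Hnrnpa1 passed the test, and Srsf9 holds none. A match to these letters is a description of the sequence and not evidence of a bound factor.

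Of the 71 members, 64 passed a filter that asked for signal well above background on 5 or more arrays. Nup107, Nup210l, Nup42, Nup54, Nup58, Nup62 and Prpf31 did not pass and were not tested. Of the 64, 37 were higher in DEN/TAA livers at an adjusted p under 0.05, 1 was lower and 26 did not pass the test, where 39.1% of all genes tested were higher and 16.3% lower. The median difference of the 64 was 0.67 on the log2 scale, against 0.33 for all genes tested. A gene dim in controls can pass such a filter through the treated arrays alone, so the 36 members detected on all 10 arrays were also counted, in a fit of genes so filtered: 24 were higher and 1 lower, where 32.3% of genes were higher and 26.5% lower. With no filter 35 of the 71 were higher and 5 lower, where 18.7% of genes were higher and 41.9% lower. Of those 5, all but Srsf9 were well above background on no array. Without control replicates 1 and 5, whose arrays were the dimmest, 34 of the 64 were higher and 1 lower, where 37.8% and 16.3% of genes were. In 24 of the 64 members every DEN/TAA rat lay above every control rat, compared with 28% of all genes, and in 1 every DEN/TAA rat lay below every control rat, compared with 11.4%. The difference had the same sign on all 3 slides for 55 of the 64, against 76% of all genes. These tests were made on whole liver, in which fewer cells of a type and less RNA per cell cannot be told apart.

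**Figure D1:**
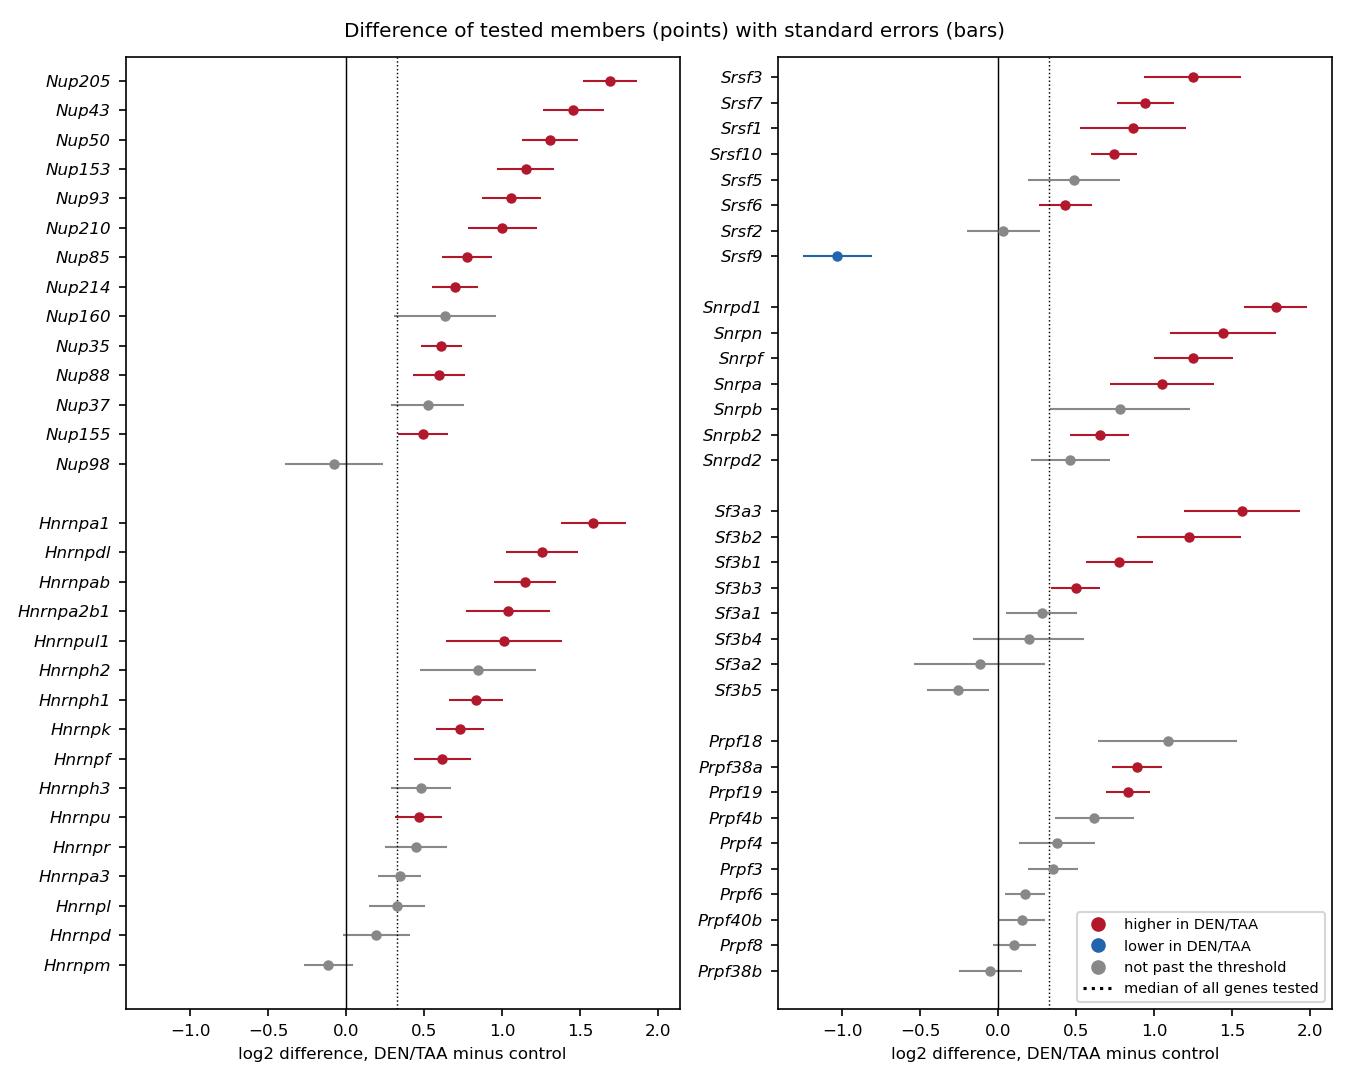
Log2 difference of tested members, DEN/TAA minus control (horizontal axis; 1 tested member is not shown), with the standard error as a bar and the members ordered by difference within each family; red marks members higher, blue members lower and grey members not past the threshold, and the dotted line is the median of all genes tested, 0.33. Snrpd1 has the largest difference, 1.78, and Srsf9 is the single member marked lower, at -1.03.

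Of the 14 nucleoporins tested 11 were higher in DEN/TAA livers (78.6%) and none lower, where 39.1% and 16.3% of all genes were. Their median difference was 0.74. All 8 tested subunits of the inner ring, the nuclear basket and the cytoplasmic filaments passed the test, as did 2 of 4 in the Y complex, and no difference between subcomplexes was tested. This grouping into subcomplexes, and the members named only through it, were chosen after their values had been seen. By scaling the number higher ranged from 6 to 13 of 14, where 23.5% to 64.9% of all genes were higher. The family's median stayed 0.21 to 0.41 above that of all genes. Without DEN/TAA replicate 5, 11 were again higher, where 38.4% of all genes were.

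In the inner ring, which anchors the pore's central transport channel, all 4 members were higher. Nup205, a large scaffold subunit that binds Nup93, had scaled signals of 25.2, 26.5, 22.6, 28.5 and 22.2 in DEN/TAA rats 1 to 5, against 6.58, 8.18, 10.6, 8.08 and 5.95 in control rats 1 to 5. The groups lay far apart, with no control rat near the lowest treated one. Nup205 was 3.23-fold higher in DEN/TAA livers (log2 difference 1.69, SE 0.18, adjusted p = 1.4e-05), with differences of 1.82, 1.26 and 1.68 on the 3 slides, and was called under all 6 scalings. Its partner Nup93 was higher by 1.06 (SE 0.19, adjusted p = 0.00069), Nup35 by 0.61 (SE 0.13, adjusted p = 0.0023) and Nup155 by 0.49 (SE 0.16, adjusted p = 0.022), the last a call lost under 3 of the 5 other scalings. Nup210, which spans the membrane around the pore, was higher by 1.00 (SE 0.22, adjusted p = 0.0024).

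Both basket proteins were higher. Nup50, which helps to release import receptors from their cargo, stood at 36.3, 33.9, 31.9, 49.2 and 47.4 in the DEN/TAA rats and at 12.3, 15.99, 16.6, 19.05 and 16.1 in the control rats. No control rat reached the lowest treated one, and the difference was 1.30 (SE 0.18, adjusted p = 9.5e-05). Nup153, the basket's attachment to the ring, gave 9.87, 8.56, 8.704, 13.05 and 12.1 in the DEN/TAA rats, compared with 3.61, 5.93, 4.35, 4.995 and 4.62 in the control rats. These groups did not overlap either, and the difference was 1.15 (SE 0.18, adjusted p = 0.00028), but the deposited table gave 0.13 (adjusted p = 0.25) and normexp correction 0.27 (adjusted p = 0.13). On the cytoplasmic face Nup214 was higher by 0.70 (SE 0.15, adjusted p = 0.0019) and its partner Nup88 by 0.59 (SE 0.17, adjusted p = 0.010). Nup88 lost its call under 4 of the 5 other scalings, and the other probe of Nup214 gave 0.38 and did not pass (adjusted p = 0.41).

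In the Y complex, the outer scaffold, 2 of the 4 tested members were higher. Nup43 stood at 13.3, 16.3, 12.1, 14.2 and 12.9 in the DEN/TAA rats and at 4.31, 5.68, 3.41, 5.33 and 6.999 in the control rats. Every treated rat lay above every control rat, and the difference of 1.45 (SE 0.20, adjusted p = 8.9e-05) was the second largest among the nucleoporins. Nup85 was higher by 0.78 (SE 0.16, adjusted p = 0.0016). Nup37 stood at 29.5, 26.4, 29.7, 28.1 and 39.9 in the DEN/TAA rats and at 12.8, 18.8, 20.5, 27.5 and 31.1 in the control rats. Its groups overlapped, with the highest control above 4 of the 5 treated rats, and 0.52 (SE 0.23, adjusted p = 0.078) did not pass the test, though without control replicate 5 it did at 0.66 (adjusted p = 0.025). Nup160 differed by 0.63 (SE 0.33, adjusted p = 0.12). Nup98, a mobile nucleoporin found on both faces of the pore, gave 2.82, 2.76, 3.92, 3.29 and 1.304 in the DEN/TAA rats, compared with 3.78, 3.97, 3.02, 2.08 and 1.81 in the control rats. Its probe was dim and the groups overlapped throughout (-0.08, SE 0.32, adjusted p = 0.85), with a sign that turned under 4 of the 5 other scalings.

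Among the Snrp genes, 5 of the 7 tested were higher in DEN/TAA livers (71.4%) and none lower, where 39.1% and 16.3% of all genes were. The median difference of 1.05 was the highest of the 6 families. Of the 5 that code for Sm proteins, which form the ring around every spliceosomal small nuclear RNA except U6, 3 were higher. DEN/TAA replicate 5 was the lowest treated rat for all 7. Without it 6 of 7 were higher, where 38.4% of all genes were, and the family's median was 1.27. By scaling the number higher ranged from 3 to 7 of 7, where 23.5% to 64.9% of all genes were higher. The family's median stayed 0.24 to 0.72 above that of all genes.

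Snrpd1, which codes for the ring protein SmD1, stood at 120.01, 149.9, 113, 158 and 94.2 in the DEN/TAA rats and at 37.6, 37.9, 50.2, 27.9 and 32.03 in the control rats. The lowest treated rat stood well above the highest control. This was the largest difference of all members, 3.43-fold (1.78, SE 0.20, adjusted p = 2.6e-05), and 2 further probes of the gene gave 1.56 and 1.55. Snrpf, for SmF, stood at 41.4, 66.2, 43.6, 104 and 40.3 in the DEN/TAA rats and at 23.98, 24.7, 23, 19.5 and 24.9 in the control rats. DEN/TAA replicate 4 was high and the other treated rats still exceeded all controls, giving 1.25 (SE 0.25, adjusted p = 0.0015). Snrpn, for SmN, a close relative of SmB best known from brain and an imprinted gene in mouse and human, gave 20.04, 18.4, 22.6, 20.9 and 10.8 in the DEN/TAA rats, compared with 11.4, 11.6, 5.37, 4.004 and 4.51 in the control rats. The controls fell into 2 higher and 3 lower rats, and DEN/TAA replicate 5 lay within their range. Its difference was 1.44 (SE 0.34, adjusted p = 0.0038), and whether the probes of the related SmN and SmB transcripts share signal was not tested.

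Snrpb, for SmB, stood at 8.13, 10.4, 8.53, 11.7 and 5.405 in the DEN/TAA rats and at 8.14, 9.12, 7.39, 3.72 and 1.51 in the control rats. Controls ran over a wider range than treated rats and overlapped them, so 0.78 (SE 0.45) did not pass the test (adjusted p = 0.16). Snrpd2, for SmD2, stood at 65.5, 83.2, 66.3, 69.5 and 33.4 in the DEN/TAA rats and at 55.2, 50.8, 43.3, 30.6 and 45.7 in the control rats. In 4 treated rats it exceeded every control and in replicate 5 it lay among them, and 0.46 (SE 0.25, adjusted p = 0.14) became 0.68 without that rat (adjusted p = 0.012). Outside the Sm ring, Snrpb2, a protein of the U2 snRNP, gave 10.4, 10.5, 10.1, 10.8 and 7.67 in the DEN/TAA rats, compared with 4.91, 6.11, 7.301, 4.99 and 8.801 in the control rats. It was higher by 0.65 (SE 0.19, adjusted p = 0.013), a call lost under 4 of the 5 other scalings. Snrpa, a protein of the U1 snRNP, was higher by 1.05 (SE 0.33, adjusted p = 0.019), and lost its call under 4 of the 5 as well.

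The products of the Sf3a and Sf3b genes form the part of the U2 snRNP that holds the branch point of the intron. Of these genes 4 of 8 were higher in DEN/TAA livers and none lower, where 39.1% and 16.3% of all genes were. The median difference, 0.39, was close to that of all genes, and relative to it ranged from -0.03 to 0.15 over the 6 scalings, changing sign among them. By scaling, 2 to 5 of the 8 were higher, where 23.5% to 64.9% of all genes were. DEN/TAA replicate 5 was the lowest treated rat for 6 of the 8, and without it 4 were again higher, where 38.4% of all genes were. Without control replicates 1 and 5, the 2 dimmest control arrays, 2 were higher, where 37.8% of all genes were.

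Sf3b2 stood at 113, 135, 133, 118 and 49.3 in the DEN/TAA rats and at 47.4, 54.8, 75.01, 30.7 and 28.7 in the control rats. The 4 other treated rats lay above all controls, but replicate 5 lay below control replicates 2 and 3. The difference was 1.22 (SE 0.33, adjusted p = 0.0088) and its other probe gave 1.32. Sf3a3 stood at 6.04, 5.54, 4.56, 5.25 and 2.61 in the DEN/TAA rats and at 0.815, 2.32, 3.25, 1.03 and 1.48 in the control rats. Replicate 5 was the lowest treated rat and lay below control replicate 3. It was higher by 1.56 (SE 0.37, adjusted p = 0.0041), but with signals not well above background raised to each array's floor, the lowest signal so detected on it, the difference was 0.36 and did not pass (adjusted p = 0.38). Sf3b1, the subunit that contacts the branch point, gave 16.9, 15.6, 14.6, 14.3 and 8.29 in the DEN/TAA rats, compared with 6.45, 7.78, 10.1, 9.09 and 6.79 in the control rats. Replicate 5 again fell within the control range. The difference was 0.78 (SE 0.22, adjusted p = 0.0096), and 4 of the 5 other scalings did not call it. Sf3b3 stood at 21.8, 19.9, 18.9, 19.7 and 26.4 in the DEN/TAA rats and at 15.3, 16.4, 13.7, 17.9 and 12.3 in the control rats. All treated rats exceeded all controls by a small margin, 0.50 (SE 0.16, adjusted p = 0.019), close to the shift of all genes, and only spike-in scaling, among the others, kept the call. Sf3b4 was well above background in no control and had signals of 1.40 to 3.27 in DEN/TAA rats and 0.876 to 4.07 in control rats. No fold is given for it, because its treated mean was under the control bound. The remaining subunits Sf3a1, Sf3a2 and Sf3b5 differed by 0.28, -0.12 and -0.26 (adjusted p = 0.32, 0.82 and 0.29).

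Of the 11 Prpf genes tested, 3 were higher in DEN/TAA livers (27.3%) and none lower, where 39.1% and 16.3% of all genes were. The median of 0.37, relative to that of all genes, ranged from -0.04 to 0.13 over the 6 scalings, changing sign among them. Under spike-in scaling 10 were higher (90.9%, against 64.9% of all genes), and under each other scaling 3 (27.3%, against 23.5% to 39.1%). Without control replicate 5 the number was 6 (54.5%, against 39.1%). Prpf19, a ubiquitin ligase at the centre of the complex that activates the spliceosome, stood at 6.57, 7.85, 7.06, 7.53 and 6.09 in the DEN/TAA rats and at 4.59, 3.47, 3.73, 3.94 and 4.01 in the control rats. Its groups did not overlap (0.83, SE 0.14, adjusted p = 0.00040). Prpf38a, needed for that activation, gave 20.2, 20.9, 14.8, 24.9 and 19.9 in the DEN/TAA rats, compared with 9.72, 11.4, 12.2, 10.7 and 9.94 in the control rats. Here too the groups stood apart, with 0.89 (SE 0.16, adjusted p = 0.00070).

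Of the Prpf genes of the U4/U6.U5 tri-snRNP, which carries the catalytic core into the spliceosome, none of the 4 tested was higher or lower. Spike-in scaling called all 4 higher: Prpf8, Prpf6, Prpf3 and Prpf4 (adjusted p = 0.017, 0.0078, 0.0015 and 0.017). Under that scaling 64.9% of all genes were higher. Sm and Lsm ring proteins of this particle are not among the 4, and some of their genes were called higher. Prpf8, the scaffold of that core, stood at 79, 89.1, 78.8, 82.5 and 92.9 in the DEN/TAA rats and at 85.2, 91.2, 70.2, 80.4 and 68.03 in the control rats. The groups overlapped almost wholly, and the difference of 0.10 (SE 0.14, adjusted p = 0.56) was 0.22 under the shift of all genes. Prpf6, which bridges the U5 and U4/U6 parts, stood at 31.9, 36.2, 35.1, 32.8 and 37.8 in the DEN/TAA rats and at 29.7, 30.1, 29.9, 35.7 and 29.3 in the control rats. Control replicate 4 lay above 3 of the 5 treated rats, and 0.17 (SE 0.13, adjusted p = 0.28) did not pass. Prpf3 and Prpf4, of the U4/U6 part, differed by 0.35 (SE 0.16, adjusted p = 0.081) and 0.37 (SE 0.24, adjusted p = 0.21). Prpf40b differed by 0.15 (adjusted p = 0.41), and Prpf38b, a relative of Prpf38a, by -0.05 (adjusted p = 0.84). Prpf4b, a kinase that acts on the tri-snRNP, gave 15.9, 13.9, 10.7, 13.7 and 20.8 in the DEN/TAA rats, compared with 6.89, 8.34, 7.53, 11.8 and 15.7 in the control rats. The highest control, replicate 5, lay among the treated rats. The difference of 0.61 (SE 0.25, adjusted p = 0.057) did not pass, but did with the slide as a block (adjusted p = 0.0023), without DEN/TAA replicate 3 (0.73, adjusted p = 0.039) and without control replicate 5 (0.79, adjusted p = 0.011). Prpf18, a factor of the second splicing step, was well above background in no control and had signals of 2.05 to 4.38 in DEN/TAA rats and 0.449 to 3.20 in control rats, which gives no fold above 1 at the control bound. Without control replicate 4 it passed the test at 1.40 (adjusted p = 0.014), and without control replicate 5 at 1.24 (adjusted p = 0.044). Both fits rest on control signals that were not well above background. With such signals raised to each array's floor, Prpf18 differed by -0.22 (adjusted p = 0.66).

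The SR proteins moved in both directions. Of 8 Srsf genes 5 were higher in DEN/TAA livers (62.5%) and 1 was lower (12.5%), where 39.1% and 16.3% of all genes were. Their median difference was 0.61. Leaving out any of the 5 treated rats or control replicate 1, 2 or 3 left 3 higher. Srsf1 and Srsf6 had adjusted p of 0.047 and 0.049, just inside the threshold. By scaling, 3 to 7 were higher, where 23.5% to 64.9% of all genes were. The family's median stayed 0.17 to 0.32 above that of all genes.

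Srsf9, a short SR protein of the Srsf1 type, stood at 5.92, 7.05, 6.04, 6.81 and 6.47 in the DEN/TAA rats and at 15.7, 20.6, 11.8, 12.9 and 8.17 in the control rats. Every treated rat lay below every control rat, and the treated rats were tightly grouped. It was 2.05-fold lower (-1.03, SE 0.22, adjusted p = 0.0021), with differences of -1.47, -0.87 and -0.66 on the 3 slides, and was called lower under every scaling except spike-in, which gave -0.37 (adjusted p = 0.31). Srsf3, which also couples splicing to mRNA export, stood at 30.7, 29.2, 23.97, 37.1 and 27.9 in the DEN/TAA rats and at 14.9, 14.9, 20.5, 12.4 and 5.28 in the control rats. The groups did not overlap, control replicate 5 was the lowest, and the difference was 1.25 (SE 0.31, adjusted p = 0.0052). Srsf7, a related export adaptor, gave 58.1, 71.01, 55.98, 76.03 and 85.4 in the DEN/TAA rats, compared with 28.5, 41.1, 31.3, 33.7 and 46.4 in the control rats. It was 1.92-fold higher, by 0.94 (SE 0.18, adjusted p = 0.0012). Srsf10, whose protein represses splicing when it is dephosphorylated, stood at 15.8, 12.7, 13.9, 14.1 and 11.1 in the DEN/TAA rats and at 6.91, 8.18, 9.498, 8.01 and 7.79 in the control rats. Its groups stood apart too (0.74, SE 0.15, adjusted p = 0.0013), and Srsf3, Srsf7 and Srsf10 were called under all 6 scalings.

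Srsf1, the founding member of the family, stood at 7.17, 5.11, 5.79, 7.53 and 7.505 in the DEN/TAA rats and at 1.64, 2.897, 4.13, 4.02 and 7.66 in the control rats. The highest rat of all was control replicate 5, and the difference of 0.86 (SE 0.34) lost its call when any rat other than control replicate 5 was left out, and fell below 0 in the deposited table and after normexp correction. Srsf2 gave 0.03 (SE 0.23, adjusted p = 0.92), within the spread between rats, and Srsf6 0.43 (SE 0.17). Srsf6 lost its call under 3 of the 5 other scalings and stood at -0.29 with signals raised to the floor (adjusted p = 0.49). For Srsf5 the probe used gave 0.48 (SE 0.30, adjusted p = 0.18) and the other 1.02 (SE 0.23, adjusted p = 0.0037).

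Among the Hnrnp genes, all 16 of which were tested, 9 were higher in DEN/TAA livers (56.3%) and none lower. Of all genes, 39.1% were higher and 16.3% lower. The family's median difference was 0.67. The family's count was the one most moved by scaling. It was 3 with the percentile over all probes (18.8%, against 23.5% of all genes) and 16 with spike-in scaling (100%, against 64.9%). The family's median stayed 0.21 to 0.38 above that of all genes. Hnrnpa1, which binds splicing silencers and shuttles to the cytoplasm with mRNA, gave 46.4, 41.2, 33.3, 52.9 and 43.2 in the DEN/TAA rats, compared with 10.2, 12.9, 13.4, 16.4 and 21.02 in the control rats. The lowest treated rat was well above the highest control. It was 3.00-fold higher (1.58, SE 0.21, adjusted p = 7.2e-05), its 2 other probes gave 1.48 and 0.96, and the slides gave 1.93, 1.65 and 1.22. Rodent genomes hold processed copies of this gene, and their share in the signal was not tested. Hnrnpab stood at 102, 91.7, 92.3, 138 and 129 in the DEN/TAA rats and at 48.1, 43.2, 54.4, 69.4 and 37.1 in the control rats. Again no rat of one group lay within the other, with 1.14 (SE 0.20, adjusted p = 0.00053). Hnrnpdl stood at 3.83, 4.34, 3.52, 6.63 and 6.19 in the DEN/TAA rats and at 1.36, 1.93, 2.41, 2.52 and 1.94 in the control rats. The groups did not overlap, and this dim probe gave 1.25 (SE 0.23, adjusted p = 0.00082), but 0.48 with signals raised to the array's floor (adjusted p = 0.25) and 0.22 in the deposited table (adjusted p = 0.10).

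Hnrnph1, which binds G-rich elements beside exons, gave 28.4, 26.5, 24.8, 29.7 and 35.5 in the DEN/TAA rats, compared with 12.8, 17.2, 13.7, 20.7 and 17.6 in the control rats. The groups did not overlap (0.83, SE 0.17, adjusted p = 0.0017). Hnrnpa2b1, a close relative of Hnrnpa1, stood at 19.5, 27.2, 31.2, 36.7 and 44.4 in the DEN/TAA rats and at 16.1, 11.2, 13.6, 25.8 and 11.7 in the control rats. Control replicate 4 lay above DEN/TAA replicate 1, and the difference was 1.04 (SE 0.27, adjusted p = 0.0070). Hnrnpd, also known as AUF1 and a regulator of mRNA decay, stood at 10.3, 9.402, 9.21, 14.4 and 9.46 in the DEN/TAA rats and at 8.704, 13.4, 9.06, 6.04 and 9.71 in the control rats. Treated replicate 4 was high and the rest of the groups overlapped (0.19, SE 0.22, adjusted p = 0.47), while its other passing probe gave 0.55 and passed the test (adjusted p = 0.037). Hnrnpm gave -0.12 (SE 0.16, adjusted p = 0.56), also within the spread between rats. Hnrnpk, which binds poly-C stretches, was higher by 0.73 (adjusted p = 0.0019), Hnrnpf by 0.61 (adjusted p = 0.014), Hnrnpu by 0.46 (adjusted p = 0.021) and Hnrnpul1 by 1.01 (adjusted p = 0.037). Hnrnpul1 was well above background on 1 control array only. With signals raised to the floor it gave 0.11 (adjusted p = 0.82), and 4 of the 5 other scalings did not call it. The other probes of Hnrnpk and Hnrnpf gave 0.31 and 0.63 and did not pass. Hnrnph2, Hnrnph3, Hnrnpr and Hnrnpl differed by 0.33 to 0.84 and did not pass, although the other probe of Hnrnpr gave 1.08 (adjusted p = 0.032). Hnrnpa3 had 6 probes that passed the filter, and the brightest, used for the gene, gave 0.34 (SE 0.14, adjusted p = 0.056). Others gave 0.85, 0.99, 1.13 and 0.58 and passed the test (adjusted p = 0.0023, 0.0092, 0.00025 and 0.025). The last gave 0.69 and did not (adjusted p = 0.055). Among the 17 members with more than 1 passing probe, none had probes called in opposite directions.

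**Figure D2:**
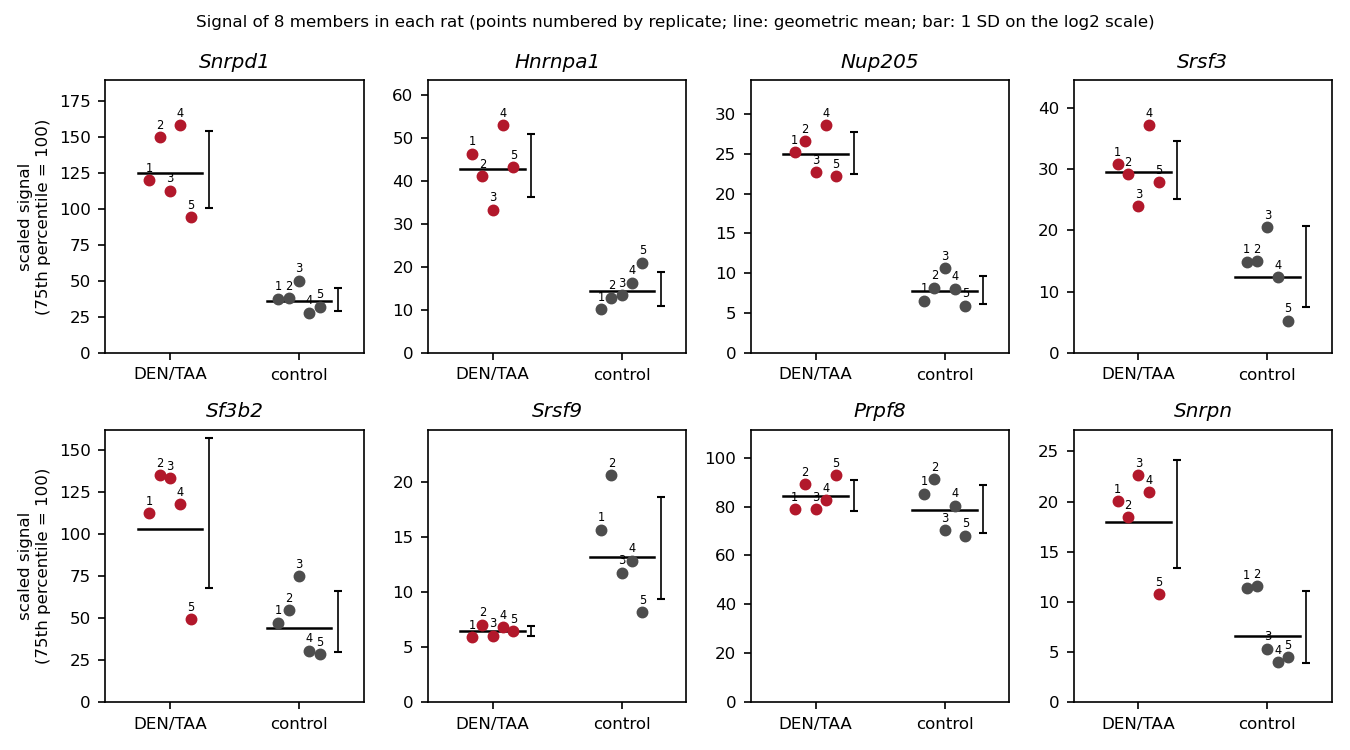
Scaled signal of 8 members in each rat (vertical axis; each array's 75th percentile is 100), with DEN/TAA rats at the left and control rats at the right of each panel, points numbered by replicate, a line at the geometric mean and a bar of 1 SD on the log2 scale. Snrpd1, Hnrnpa1, Nup205 and Srsf3 show higher treated rats without overlap, Srsf9 the reverse and Prpf8 overlapping groups, while DEN/TAA replicate 5 stands below the other treated rats in Sf3b2 and Snrpn.

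Genes of the same pathways that the symbol rule does not take were counted in the same fit, where 39.1% of all genes were higher and 16.3% lower. Of 31 tested proteins of the spliceosome 18 were higher in DEN/TAA livers and none lower, with a median difference of 0.56. Lsm3, a ring protein of the U6 snRNA, was higher by 1.18 (SE 0.18, adjusted p = 0.00021), Crnkl1 by 1.04 (SE 0.19, adjusted p = 0.00083) and Plrg1, a partner of Prpf19, by 0.83 (SE 0.16, adjusted p = 0.0011). Of 28 splicing regulators 11 were higher, close to the share of all genes, and 1 was lower. Their median of 0.38 was near that of all genes as well. Fubp1 was higher by 1.86 (SE 0.27, adjusted p = 0.00014), Tardbp, for the RNA-binding protein TDP-43, by 1.72 (SE 0.25, adjusted p = 0.00014) and Ewsr1 by 1.38 (SE 0.17, adjusted p = 4.7e-05). Esrp2, an epithelial splicing regulator, was the lower one, with signals of 4.00 to 6.46 in DEN/TAA rats and 7.14 to 9.38 in control rats (-0.65, SE 0.16, adjusted p = 0.0052), although spike-in scaling gave 0.02.

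Downstream of splicing, 10 of 20 exon junction and mRNA export genes were higher and none lower, where 39.1% and 16.3% of all genes were. Their median was 0.45. Nxt1, the partner of the main mRNA export receptor, was higher by 0.97 (SE 0.16, adjusted p = 0.00041), Upf3b, of nonsense-mediated decay, by 0.89 (SE 0.19, adjusted p = 0.0021) and Magoh, of the exon junction complex, by 0.63 (SE 0.14, adjusted p = 0.0032). The receptor itself, Nxf1, was not higher. It differed by -0.34 (SE 0.17, adjusted p = 0.11), which did not pass the test, and was called lower under 4 of the other scalings. Of 18 other nuclear pore and transport genes 13 were higher and none lower, with a median of 0.91. Ranbp1, a cofactor of the Ran GTPase cycle, was higher by 1.59 (SE 0.23, adjusted p = 0.00015), the export receptor Xpo1 by 1.14 (SE 0.18, adjusted p = 0.00027) and the basket protein Tpr by 0.92 (SE 0.12, adjusted p = 9.5e-05).

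Markers of cell types and of proliferation differed between the groups alongside these genes. In the same fit 39.1% of all genes were higher and 16.3% lower. Of 12 hepatocyte markers, all detected on all 10 arrays, 10 were lower and none higher, with summed signals of 17540 to 22315 in DEN/TAA rats and 36354 to 54706 in control rats. Apoa1, which had no call here, was called higher under 4 of the 6 scalings. Fgb was called lower under 2 and higher under 1, and Alb and Hpx were called lower under 2. Of 10 macrophage markers 9 were higher, with sums of 1336 to 2046 in DEN/TAA rats and 405 to 846 in control rats. Of these, Cd163 and Trem2 were above background on no control array. Of 8 tested stellate cell and myofibroblast markers 7 were higher, with sums of 464 to 703 in DEN/TAA rats and 94.0 to 151 in control rats. All 4 tested biliary markers were higher, with sums of 62.0 to 115 in DEN/TAA rats and 6.85 to 13.6 in control rats, where 3 of the 4 were above background on no array. Of 4 endothelial markers 3 were higher (152 to 203 in DEN/TAA rats, 107 to 221 in control rats) and of 3 lymphocyte markers 2 (14.0 to 17.8 in DEN/TAA rats, 4.29 to 11.1 in control rats). Those 2, Cd3g and Zap70, were above background on no control array, and at the control bound were 1.42-fold and 1.22-fold higher. Of 7 tested proliferation markers 6 were higher and none lower, with sums of 50.4 to 68.2 in DEN/TAA rats and 16.7 to 32.0 in control rats. Of the 7, 3 (Ccnb1, Mcm3 and Aurka) were above background on no control array. Their treated means lay under the control bound, so no fold above 1 is given for them. Under all 6 scalings 5 of the hepatocyte markers were lower, and 7 macrophage, 7 stellate cell, 4 biliary, 3 endothelial, 2 lymphocyte and 3 proliferation markers were higher. Their part in the members' differences was not tested.

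The count of members called depended on how the arrays were scaled, while under none of the scalings was more than 1 member lower. With the 75th percentile taken over all probes, 20 of 64 were higher, where 23.5% of all genes were, and after quantile normalisation 28, where 28.3% were. Spike-in scaling gave 58 (64.9% of all genes), normexp correction 29 (29.9%) and the deposited table also gave 29 (29.7%). Lower members numbered 0 under spike-in scaling, where 5.76% of all genes were lower, and 1 under each other scaling, where 16.3% (75th percentile over detected probes), 23.3% (percentile over all probes), 19.7% (quantile), 19.6% (normexp) and 19.2% (deposited table) of all genes were lower. Under all 6 scalings 18 members were called higher, where 20.8% of all genes were, and none lower, where 5.6% were. Relative to the median of all genes, 43 of the 64 lay above it under every scaling and 10 below it, compared with 43.2% and 43.7% of all genes. The percentile scalings and spike-in scaling give the same value relative to that median by arithmetic, so their agreement was fixed in advance.

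**Figure D3:**
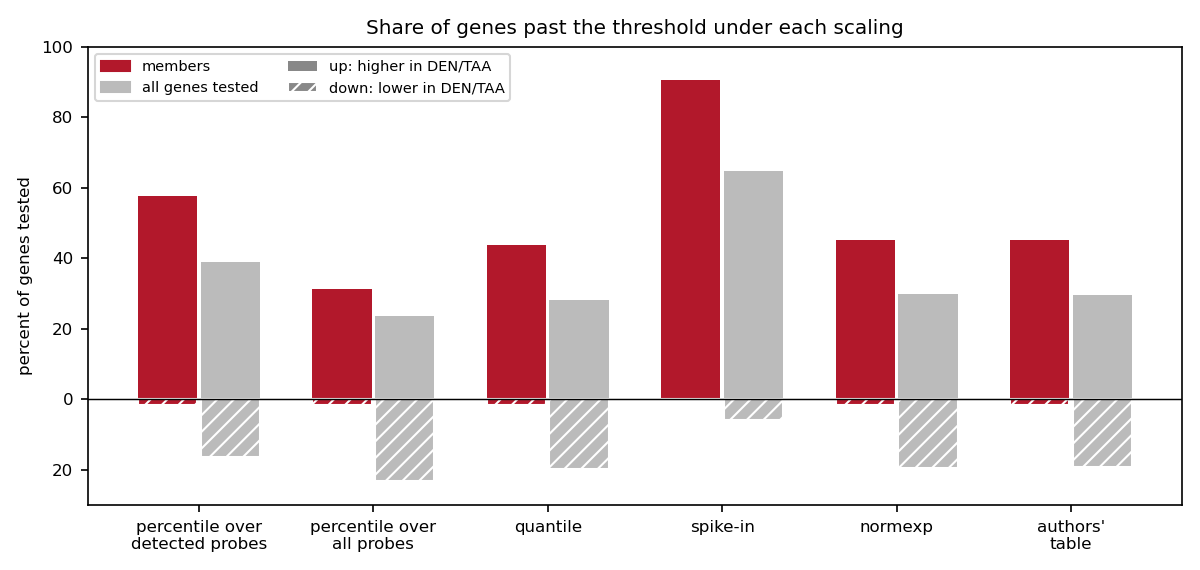
Percent of tested genes past the threshold under each of the 6 scalings (vertical axis), for the 64 members in red and all 6854 genes in grey, with bars upward for higher in DEN/TAA and hatched bars downward for lower. The red bar upward exceeds the grey one under each scaling, from 20 members to 58, and the downward red bar holds at most 1 member.

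DEN/TAA replicate 3 was the lowest treated rat for 22 of the 64 members (34.4%, against 17.7% of all genes). Replicate 4 was the highest for 26 (40.6%, against 19.5%) and the lowest for 1 (1.56%, against 17.5%). DEN/TAA replicate 5 was the lowest treated rat for 26 of the 64 members (40.6%), against 32.0% of all genes. Its place varied between families, without a test of that difference. It was lowest for 7 of 7 Snrp and 6 of 8 Sf3a or Sf3b genes, but for 3 of 14 nucleoporins, 5 of 16 Hnrnp, 2 of 8 Srsf and 3 of 11 Prpf genes. Relative to the median of the 5 treated rats it lay at -0.66 on the log2 scale for the median Snrp gene and -0.61 for the median Sf3a or Sf3b gene, compared with 0.12 for the median nucleoporin and 0.00 for the median gene of all. Control replicates 4 and 5, on the same slide, lay below the control median in these families too: replicate 4 at -0.42 for the median Snrp gene and -0.36 for the median Sf3a or Sf3b gene, and replicate 5 at -0.23 and -0.098. Across all genes the deviations of DEN/TAA replicate 5 and control replicate 4 from their group means correlated at r = 0.57, the highest of the 25 pairs of a treated with a control rat, and those of DEN/TAA replicate 5 and control replicate 5 at 0.11. No other treated rat was on that slide, and the slide's part in the low values was not tested. Without DEN/TAA replicate 5 alone, 38 members were higher and 1 lower, where 38.4% of all genes were higher and 16.7% lower.

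**Figure D4:**
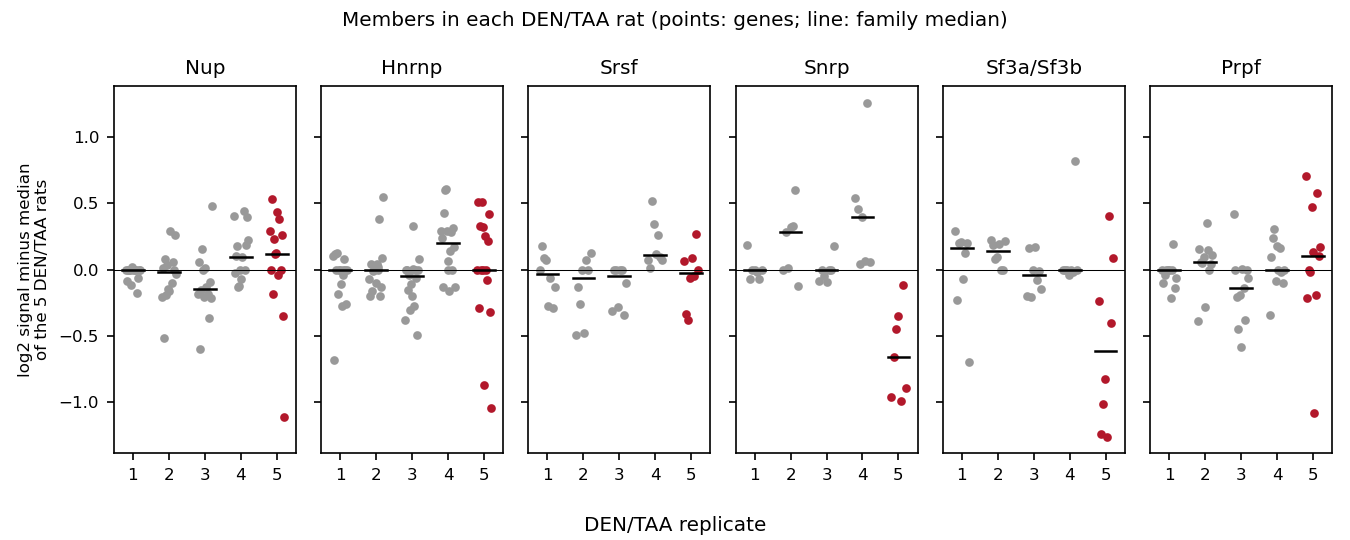
Log2 signal of each tested member in each DEN/TAA rat minus the median of the 5 DEN/TAA rats (vertical axis), by family, with replicate 5 in red and a line at the family's median. Replicate 5 lies below 0 for the 7 Snrp genes and for most Sf3a or Sf3b genes, with medians of -0.66 and -0.61, and on both sides of 0 in the other families.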

How the data were processed

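Spots on 1-colour Agilent whole rat genome arrays (150 ng of total RNA per array) were read from the deposited scanner files, which hold signal intensity. Per the file headers the scanner software was Agilent Feature Extraction 11.5.1.1; version 15.5 stands in the submitters' processing notes. Per the file headers that software also wrote a background-subtracted signal beside the processed signal intensity; its further settings are not given in the sources used here. A table of log2 values was deposited by the authors as well. It ranked spots exactly as the raw median signal did, and its column medians were 8.59; how it was scaled further is unknown.

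From these, log2 processed signal was scaled by each array's 75th percentile over the 6231 probes well above background on all 10 arrays. Control spots and flagged spots were left out, and spots of a probe were averaged. Symbols came from matching accessions to rat RefSeq: 17502 probes had 1 symbol and 23510 none. A gene was read by its brightest probe that was well above background on 5 or more arrays. Groups were compared with lmFit and eBayes (limma 3.58.1, R 4.3.3), two-sided, with Benjamini-Hochberg adjustment over 6854 genes and a threshold of 0.05, checked on simulated data. The authors' protocols name no separate cultures or litters, and each array was taken as 1 rat, so p-values measure the spread between these rats.

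The alternatives were 5 other scalings, the filter, the mean over probes, slide or replicate as a block, another variance prior, array weights and leaving out rats. Normexp correction (offset 50, then quantile normalisation) used the median signal, since a mean signal was not used here. Slide and scan coincide: slide 1 held replicates 1 and 2 of both groups, slide 2 held DEN/TAA 3 and 4 and control 3, and slide 3 held DEN/TAA 5 and control 4 and 5.

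The members, lists and tests were chosen with earlier results of these data known. Members given with rat values were, per family, the 4 higher and 3 lower with the smallest adjusted p, those above background in no rat of a group, those with a far rat, and 12 genes listed by name. Those of the 12 without a passing probe (Nup62) are only named. Of each list outside the rule, 3 genes per direction with the smallest adjusted p were taken. Nxf1 was added apart from this pick, after its values had been seen. Other members were described after their values were seen. One member's own values are not reported here, though the counts include it.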

Additional observations from a re-analysis of the deposited data

Results flagged for a closer look

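In 8 of 128 sets, each a tested member in the 5 rats of 1 group, the highest or lowest rat lay far from the nearest other one, measured as that gap over the whole range. Chance gives about 1 in 20 such sets, and over all genes tested 959 of 13708 sets (7%) held such a rat, so the members' share was no higher than that of all genes. DEN/TAA replicate 5 was far below the other treated rats for Sf3b2 (gap 0.818 of the range, signal 49.3 against 113 to 135 in the others), Snrpb2 (0.807, 7.67 against 10.1 to 10.8), Sf3b1 (0.762, 8.29 against 14.3 to 16.9), Snrpd2 (0.739, 33.4 against 65.5 to 83.2) and Snrpn (0.723, 10.8 against 18.4 to 22.6). The same rat was far above the others for Nup37 (0.716, 39.9 against 26.4 to 29.7). DEN/TAA replicate 4 was far above for Hnrnpd (0.747, 14.4 against 9.21 to 10.3), and control replicate 4 for Prpf6 (0.863, 35.7 against 29.3 to 30.1).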

How the results depend on the processing

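Against 37 members higher and 1 lower, the 75th percentile over all probes gave 20 higher, spike-in scaling 58 higher and 0 lower, the filter for detection on all 10 arrays 24 higher of 36 tested, and no filter 5 lower of 71 tested, namely Nup107, Nup210l, Nup42, Nup58 and Srsf9. Every other planned setting kept both counts within 1.5 times. Of the 5 lower with no filter, all but Srsf9 were well above background on no array, so their differences compare background signals. That setting called 41.9% of all genes lower. Leaving out 1 rat gave 32 to 41 higher and 1 lower each time, and no member called was called in the opposite direction under any setting tried. For the 18 spliceosome genes called outside the rule, the counts were 6 (percentile over all probes), 11 (quantile), 29 (spike-in) and 11 (all-10 filter). For the 12 splicing regulators called it was 22 under spike-in scaling. For the 10 exon junction and export genes the counts were 4 (percentile over all probes), 6 (quantile), 17 (spike-in), 6 (normexp), 5 (all-10 filter) and 6 (without the 2 dimmest controls). For the 13 other pore and transport genes they were 8 (quantile), 6 (all-10 filter) and, with signals not well above background raised to the array's floor, a setting chosen after seeing the data, 7. Of all genes, 64.9% were higher under spike-in, 29.9% under normexp, 28.3% under quantile and 23.5% under all-probe percentile scaling. The all-10 filter gave 32.3%, leaving out the 2 dimmest controls 37.8% and the floor 27.2%. The 6 of 31 spliceosome and 4 of 20 export genes were smaller shares than the 23.5%. Genes detected on all 10 arrays numbered 17, 10 and 7 in the spliceosome, export and pore lists. The filter for all 10 arrays tests fewer genes. The cause of the other changes in count was not tested. Among genes given with rat values or picked from the lists, signs turned for Srsf1 (-0.029 after normexp, -0.074 in the deposited table), Esrp2 (0.017, spike-in), Hnrnpd (-0.11, percentile over all probes; -0.14, quantile), Prpf6 (-0.14, percentile over all probes; -0.00049, quantile; -0.0477, normexp; -0.0479, deposited table), Prpf8 (-0.20, percentile over all probes), Prpf18 (-0.22, floor), Sf3b4 (-0.11, percentile over all probes; -0.66, floor; -0.059 to 0.50 when 1 rat was left out) and Nup98 (0.070, quantile; 0.58, spike-in; 0.16, normexp; 0.075, deposited table; -0.23 to 0.18 when 1 rat was left out). Over all settings the sign turned for 18 of the 64 members tested, of which 2 were called, Srsf1 and Srsf6 (-0.29, floor). Deviations of samples with the same replicate number correlated at r from -0.21 to 0.20 over 5 pairs, 2 of them over 0.1. Of the treated rats, 1 was closest to its own number. So few values cannot exclude a pairing, and all of these pairs except number 4 also shared a slide. The replicate block gave 39 members higher and 1 lower, where 38.9% of all genes were higher. Dim signal limits the members below background in controls, whose differences are bounds at best.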
